A study of Mus musculus with 6 samples.

Results

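Vascular smooth muscle cells (vSMCs) of the mouse sciatic nerve were examined 2 months after sham surgery or partial sciatic nerve ligation (PSNL), a model of neuropathic pain in which part of the nerve is tied off. The vSMCs were selected on their own RNA counts. A vSMC was a barcode with at least 1000 unique molecular identifiers (UMIs, each standing for 1 captured RNA molecule) and under 10% of them from mitochondrial genes, with at least 3 UMIs of Myh11, Tesc, Pcp4l1 and Pln together, with more of these than of the pericyte genes Kcnj8, Abcc9, Vtn and Higd1b, and with none of Pdgfra, Sox10 and Cdh5, which mark fibroblasts, Schwann cells and endothelial cells. This gave 1057 vSMCs of 10042 cells at month 2, and of 11524 cells in the 5 libraries of the series that were analysed. The 4 month 2 libraries were 1 sham and 1 PSNL library in each of 2 batches. Each pooled 4 nerves of wild-type adult C57BL/6J mice, in equal parts male and female. In sham surgery the nerve was exposed and not tied. A short piece of nerve around the lesion was taken after perfusion, and live, nucleated, CD45-negative, Ter119-negative and myelin-negative single cells were sorted and loaded for 3' version 3 10X Chromium sequencing. The gates were set against white and red blood cells, and a library is a pool of animals, so p-values refer to pools and not to single animals. More vSMCs in the nerve and better recovery of vSMCs in dissociation cannot be told apart in their share of the sorted cells.

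Vascular smooth muscle wraps arteries, arterioles and larger veins and sets their calibre by contracting around the lumen. Contraction starts when calcium enters through voltage-gated channels or leaves the sarcoplasmic reticulum, binds calmodulin and activates myosin light chain kinase, which lets smooth muscle myosin pull on actin. Sympathetic transmitters, endothelin, angiotensin and nitric oxide act on this machinery through receptors on the cell or inside it. In the nerve, these vessels supply the endoneurium and the sheaths around it. Pericytes are the related cells of capillaries, and the pair is grouped as mural cells. Under injury or in culture vSMCs can lose contractile proteins and gain matrix and migratory genes, which is called the synthetic state.

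The libraries held 26 and 245 vSMCs in sham and 273 and 513 in PSNL, giving batch 1 before batch 2 here and in every pair of values that follows. Their summed depth was 126419 and 962853 UMIs in sham and 697441 and 2170814 in PSNL, with medians of 4711 and 3716 UMIs per vSMC in sham and 2308 and 4083 in PSNL. Levels are given as a gene's UMIs per 1000000 UMIs (CPM) of the sum over a library's vSMCs. The sham library of batch 1 stood apart. It had the fewest vSMCs, a median mitochondrial share of 8.32% against 3.04% to 3.13% in the other libraries, and Spearman correlations with the others of 0.757 to 0.776, where those among the others were 0.894 to 0.937 over 7996 genes. At most 1 cell barcode was shared by any pair of libraries, and no vSMC was among them. The doublet caller Scrublet marked 0.185% to 1.10% of the cells of a library and 2 vSMCs in all, under 0.5% in both batch 2 libraries, so it called very few cells.

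Genes of smooth muscle that the rule did not use fitted the name. Acta2, the smooth muscle actin of the thin filament, stood at 17466 and 17771 CPM in sham and 15692 and 12681 CPM in PSNL, against 55.1 to 194 CPM in all other cells of the same libraries. Tagln, an actin-binding protein of differentiated smooth muscle, stood at 16010.3 and 15595 CPM in sham and 15049 and 11351 CPM in PSNL, against 45.5 to 206 CPM. Both genes were high in each of the 4 libraries, with no overlap with the other cells, and the PSNL library of batch 2 was the lowest of the 4 for both. Of the other markers listed for smooth muscle, Actg2, the actin of visceral muscle, stood at 0 to 10.0 CPM and Rergl, a small GTPase, at 0 to 40.1 CPM, and both were at 0 in the sham library of batch 1. At least 1 Acta2 UMI was found in 96.2% to 99.6% of vSMCs and in 0.543% to 4.13% of fibroblasts, whose median depth of 3127 to 5344 UMIs was above that of the vSMCs in each library. The share that free RNA gives was thus far below the share in vSMCs.

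Markers of most other cell types were low, and those of pericytes were not. The 6 pericyte markers outside the rule summed to 2508 and 2728 CPM in sham and 1812 and 2535 CPM in PSNL in vSMCs, against 194 to 394 CPM in the other cells and 2138 and 3248 CPM in sham and 3210.3 and 3829 CPM in PSNL in pericytes. In the sham library of batch 1 their sum was higher in vSMCs than in pericytes. Pericytes were gated by the mirrored rule, and in that library they were 9 cells, with 22589 CPM of fibroblast markers. In all 4 libraries 3 of the 6 were at least 2-fold higher in vSMCs than in the other cells, and 0 were 2-fold lower. The 9 fibroblast markers outside the rule were each at least 2-fold lower than in the other cells in all 4 libraries, with a sum of 1637 and 1137 CPM in sham and 444 and 423 CPM in PSNL, against 27723 to 42138 CPM in the other cells. Schwann cell markers summed to 47.5 and 172 CPM in sham and 100.4 and 306 CPM in PSNL, and endothelial markers outside the rule to 229 and 132 CPM in sham and 93.2 and 105 CPM in PSNL, where 1 of the 7 was at least 2-fold lower than in the other cells in all 4 libraries. Perineurial markers summed to 23.7 and 56.1 CPM in sham and 12.9 and 33.2 CPM in PSNL, with 0 of the 5 at least 2-fold lower in all 4 libraries. Immune markers summed to at most 2.76 CPM, erythroid markers to at most 0.461 CPM and skeletal muscle markers to 2.76 to 15.8 CPM, with Lyz2, C1qa, Hba-a1, Ckm and Myh1 at 0 in every vSMC. At the edge of the rule, the 29 vSMCs with exactly 3 marker UMIs held 8810 CPM of Acta2 and 9954 CPM of the fibroblast gene Dcn, the 33 barcodes just outside with 2 held 1433 and 22282 CPM, and the 970 vSMCs with at least 6 held 14804 and 211 CPM. Cells near the threshold carried more fibroblast RNA than the bulk of the vSMCs.

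The rule itself set vSMCs against other cells, so this contrast is a description, with no test. A gene was compared where the classes together had at least 10 UMIs in every library, and a sum under 3 UMIs was taken as 3. By this measure 574 of 12586 genes (4.56%) were at least 2-fold higher in vSMCs in all 4 libraries, and 618 (4.91%) were at least 2-fold lower. Of the contractile genes outside the rule, 20 of 20 were higher, and their median log2 ratio was 4.96, where that of all 12575 genes outside the rule was -0.11. The list's 21 members in the table, without Myh11, summed to 76167 and 68485 CPM in sham and 66399.9 and 52666 CPM in PSNL in vSMCs and to 1903 to 2813 CPM in the other cells. The thin filament and its regulators led: the log2 ratio in single libraries was 6.69 to 8.77 for Cnn1, which encodes calponin, a brake on the actomyosin ATPase, 5.98 to 7.97 for the tropomyosin gene Tpm2 and 5.94 to 8.69 for Lmod1, which encodes leiomodin, an actin nucleator. Other members had smaller ratios. Pdlim7, a scaffold of actin bundles, had log2 ratios of 1.12 to 1.83, and Csrp1, a cytoskeletal LIM protein, 1.55 to 3.88.

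**Figure D1:**
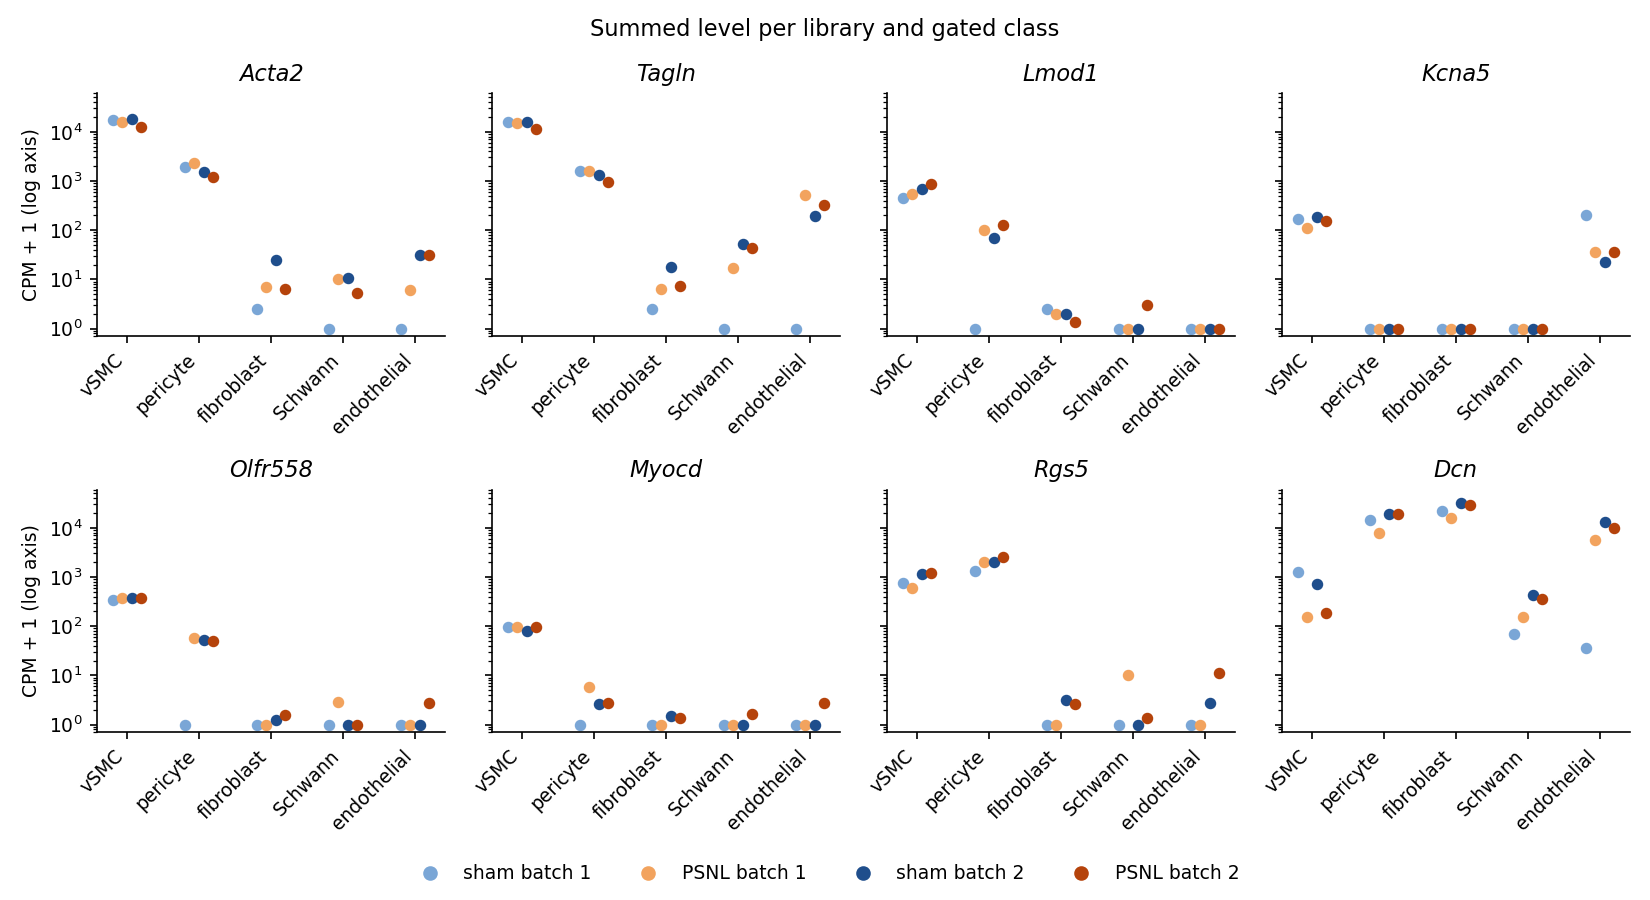
Summed level of 8 genes (CPM + 1, log axis) in each of 5 gated cell classes, with 1 point per library and colour giving surgery and batch. Acta2, Tagln and Lmod1 were highest in vSMCs in every library, Kcna5 was also seen in endothelial cells, Rgs5 was higher in pericytes, and Dcn was high in pericyte-gated cells as well as in fibroblasts.

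The 25 genes outside the rule with the largest smallest log2 ratio included Acta2, Tagln, Tpm2, Cnn1 and Lmod1. Myom1, also among them, which encodes the M-band protein myomesin, stood at 245 and 197 CPM in sham and 171 and 267 CPM in PSNL, against 0 to 3.08 CPM in the other cells. Ldb3, a Z-disc protein, stood at 111 and 73.7 CPM in sham and 97.5 and 82.9 CPM in PSNL, and Tcap, the titin cap telethonin, at 63.3 and 56.1 CPM in sham and 45.9 and 26.7 CPM in PSNL. Sgca, a sarcoglycan of the muscle membrane complex, stood at 55.4 and 45.7 CPM in sham and 37.3 and 40.1 CPM in PSNL. These 4 genes were each at no more than 3.08 CPM in the other cells of every library, and the skeletal muscle marker list was near 0 in the same vSMCs. Myocd, the coactivator that binds serum response factor on smooth muscle promoters, stood at 94.9 and 80.0 CPM in sham and 96.1 and 95.4 CPM in PSNL, against 0 to 1.54 CPM. Rbm24, an RNA-binding regulator of muscle splicing, stood at 189.8 and 158 CPM in sham and 171 and 217 CPM in PSNL. Map3k7cl had the largest smallest ratio of all, with log2 ratios of 6.93 to 8.38. The remaining leaders were Gm37800, Gm13861, Cap2, Susd5, Dgkb, Nrgn, Slc38a11, Olfr558, Olfr78, Fbxl22, Rgs7bp, Scn4b and Gucy2g.

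Genes of the olfactory receptor family were also among these leaders. Olfr558 stood at 332 and 366 CPM in sham and 369.9 and 369 CPM in PSNL, against 1.07 to 5.63 CPM in the other cells, and at least 1 UMI was seen in 44.7% to 66.5% of vSMCs and in at most 0.315% of fibroblasts of any library. With cells thinned to 1000 UMIs the share was 23.7% to 30.8% of vSMCs and at most 0.106% of fibroblasts. Olfr78, a receptor for short-chain fatty acids, stood at 189.8 and 98.7 CPM in sham and 118 and 106 CPM in PSNL, against 0 to 1.82 CPM. Olfr78 overlaps Olfr560 on the same strand in the annotation, so reads of these genes may be shared, whereas Olfr558 (ENSMUSG00000070423.6, chr7:102702215-102712064, plus strand of GRCm38) overlaps only a pseudogene on the opposite strand. Both receptor genes had similar levels in all 4 libraries, apart from a higher Olfr78 value in the sham library of batch 1, where 24 UMIs were counted.

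Promoter windows of the leading genes were searched for the CArG box, the binding motif of serum response factor, on both strands of the 250 bases before each start site in RefSeq's GRCm38.p6 table. It was found for 3 of the 19 leading genes with an entry, for 2 of 19 contractile genes and for 439 of 27025 genes (1.62%) in the table. The 4 windows below are of 3 genes that led against the other cells and of Myl9, the regulatory light chain of smooth muscle myosin, and are shown because they carry the motif, with its bases in capitals. They lie on chr2:156775214-156775463, plus strand (Myl9), chr14:34588682-34588931, minus strand (Ldb3), chr9:66514594-66514843, minus strand (Fbxl22), and chr17:71019307-71019556, plus strand (Myom1). A match describes the letters of the window and shows no binding.
Myl9: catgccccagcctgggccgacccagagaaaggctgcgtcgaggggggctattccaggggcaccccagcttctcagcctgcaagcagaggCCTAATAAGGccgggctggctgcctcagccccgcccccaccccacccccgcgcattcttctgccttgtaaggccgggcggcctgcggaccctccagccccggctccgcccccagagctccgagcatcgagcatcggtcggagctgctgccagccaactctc
Ldb3: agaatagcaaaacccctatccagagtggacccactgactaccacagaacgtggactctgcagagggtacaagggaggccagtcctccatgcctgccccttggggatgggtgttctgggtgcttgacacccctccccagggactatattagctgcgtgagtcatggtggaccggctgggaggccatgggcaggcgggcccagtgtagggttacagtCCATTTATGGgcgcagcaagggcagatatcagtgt
Fbxl22: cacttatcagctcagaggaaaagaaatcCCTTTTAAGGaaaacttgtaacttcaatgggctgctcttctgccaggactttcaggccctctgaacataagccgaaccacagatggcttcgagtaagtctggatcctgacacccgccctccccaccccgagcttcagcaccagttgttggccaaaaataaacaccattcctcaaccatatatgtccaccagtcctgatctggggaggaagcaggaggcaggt
Myom1: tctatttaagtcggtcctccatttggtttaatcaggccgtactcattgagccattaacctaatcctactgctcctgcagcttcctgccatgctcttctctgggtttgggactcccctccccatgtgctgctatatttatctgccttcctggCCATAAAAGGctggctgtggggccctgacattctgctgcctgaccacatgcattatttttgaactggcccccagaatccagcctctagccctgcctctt
Myl9 itself stood at 7127 and 5995 CPM in sham and 5679 and 4033 CPM in PSNL, against 76.9 to 142 CPM in the other cells, and Fbxl22 at 269 and 234 CPM in sham and 294 and 154 CPM in PSNL, against 0 to 2.64 CPM.

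Calcium handling genes were higher in 9 of 10 comparable members outside the rule, and in none lower. Cacna1c, the pore of the L-type channel that carries calcium in, stood at 47.5 and 73.7 CPM in sham and 60.2 and 81.5 CPM in PSNL, against 1.43 to 6.15 CPM. Cacna1h, a T-type channel, stood at 94.9 and 41.5 CPM in sham and 38.7 and 46.1 CPM in PSNL, and Casq2, the calcium buffer of the sarcoplasmic reticulum, at 198 and 133 CPM in sham and 74.6 and 78.8 CPM in PSNL. In the other cells of every library Cacna1h and Casq2 were, like Cacna1c, at no more than 6.15 CPM. Itpr1, the inositol trisphosphate receptor, and Mrvi1, through which cyclic GMP restrains it, had log2 ratios of 2.65 to 3.38 and 5.57 to 6.79. The exception was Stim1, the reticulum's calcium sensor, with log2 ratios of 0.80 to 1.33. Pln, the inhibitor of the calcium pump and a gene of the rule, overlaps Cep85l on the opposite strand, and the counting strand is not given in the sources used here.

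Among ion channels 6 of 10 were higher and 1 was lower. Kcna5, a voltage-gated potassium channel, stood at 166 and 182 CPM in sham and 109 and 151 CPM in PSNL, at 0 in pericytes and fibroblasts, and at 207 and 21.0 CPM in sham and 35.6 and 34.1 CPM in PSNL in endothelial cells, where the sham library of batch 1 had only 7 cells. Kcnmb1, the beta subunit of the large-conductance calcium-activated potassium channel, stood at 71.2 and 46.7 CPM in sham and 47.3 and 55.3 CPM in PSNL, and Kcnk3, a two-pore-domain potassium channel, at 63.3 and 127 CPM in sham and 125 and 204 CPM in PSNL. Ano1, a calcium-activated chloride channel, stood at 63.3 and 69.6 CPM in sham and 53.1 and 65.9 CPM in PSNL in vSMCs and at 123 and 60.2 CPM in sham and 76.0 and 92.2 CPM in PSNL in pericytes, with overlapping values. Pkd2, a polycystin cation channel, was the lower member at 47.5 and 44.7 CPM in sham and 31.5 and 50.7 CPM in PSNL, against 90.8 to 111 CPM.

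Of the vasoactive receptors and their effectors, 9 of 17 were higher and none was lower. The nitric oxide receptor, soluble guanylyl cyclase, was represented by Gucy1a1 at 973 and 1633 CPM in sham and 1213 and 1839.9 CPM in PSNL and Gucy1b1 at 189.8 and 350.0 CPM in sham and 248 and 299.9 CPM in PSNL, against 9.66 to 42.2 CPM and 2.15 to 14.7 CPM in the other cells. Downstream of it, the kinase gene Prkg1 stood at 189.8 and 216 CPM in sham and 245 and 197 CPM in PSNL and Pde5a, which breaks cyclic GMP down, at 356 and 272 CPM in sham and 294 and 278 CPM in PSNL. Ednra, the contractile endothelin receptor, stood at 253 and 179 CPM in sham and 285 and 262 CPM in PSNL, against 14.4 to 21.7 CPM. Ednrb, the other endothelin receptor, stood at 31.6 and 8.31 CPM in sham and 10.0 and 4.15 CPM in PSNL, against 14.7 to 218 CPM in all other cells and 678 to 1176 CPM in Schwann cells. It was above the other cells in the sham library of batch 1, which held 5 Schwann cells, and below them in the other 3 libraries. Ramp1, a subunit of the receptor for calcitonin gene-related peptide, stood at 245 and 329 CPM in sham and 357 and 326 CPM in PSNL, while its partner Calcrl was not 2-fold higher throughout (63.3 and 62.3 CPM in sham and 116 and 80.2 CPM in PSNL). Receptors for noradrenaline were sparse: Adra2b stood at 15.8 and 39.5 CPM in sham and 22.9 and 32.7 CPM in PSNL, Adra1a at 7.91 to 16.6 CPM, and Adra1b and Adra1d at no more than 5.19 CPM. Agtr1a, the angiotensin receptor, was at 15.8 and 12.5 CPM in sham and 10.0 and 7.37 CPM in PSNL and higher in pericytes, at 19.0 to 98.3 CPM.

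Regulators of G-protein signalling were higher in 6 of 9. Rgs5, which shortens signalling from these receptors, stood at 744 and 1133 CPM in sham and 588 and 1201 CPM in PSNL in vSMCs, below the 1352 to 2517 CPM of pericytes. Rgs4 and Rgs7bp stood at 601 and 459 CPM in sham and 457 and 496 CPM in PSNL and at 419 and 461 CPM in sham and 552 and 529 CPM in PSNL, and both were lower in pericytes in every library. In the Notch pathway 5 of 9 members were higher. Notch3, the receptor of mural cells, stood at 957 and 547 CPM in sham and 541 and 683 CPM in PSNL, against 12.5 to 31.1 CPM in all other cells, and Jag1, its ligand, at 490.4 and 347 CPM in sham and 776 and 377 CPM in PSNL. The target genes Hes1, Hey2 and Heyl were also at least 2-fold higher in all 4 libraries, while the ligand Dll4 was at 0. Of the transcription factors 4 of 15 were higher, namely Myocd, Srf, Mef2c and Tbx2, and Klf4, which represses smooth muscle genes, was lower at 39.6 and 48.8 CPM in sham and 25.8 and 75.5 CPM in PSNL, against 414 to 663 CPM.

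Matrix genes were divided. Fibrillar collagen genes were low, with Col1a1 at 39.6 and 137 CPM in sham and 96.1 and 132 CPM in PSNL and Col3a1 at 23.7 and 131 CPM in sham and 57.4 and 90.7 CPM in PSNL, against 3184 to 4508 CPM and 3218 to 6365 CPM in the other cells. In all 12 of 24 matrix genes were lower and 5 were higher: Lama5, a laminin chain of vessel basement membranes, at 142 and 104 CPM in sham and 91.8 and 155 CPM in PSNL, Lamc3, Sparcl1, and the integrin genes Itga1 and Itga7, which bind collagen and laminin. The basement membrane collagen genes Col4a1 and Col4a2 were near the other cells, with log2 ratios of -0.26 to 0.059 and 0.19 to 0.41. Genes of the synthetic state were lower in 12 of 20 members and higher in 1, Cnn2, a calponin of many cell types (150.3 and 251 CPM in sham and 202 and 241 CPM in PSNL). Spp1, the osteopontin gene, stood at 0 and 5.19 CPM in sham and 1.43 and 0.461 CPM in PSNL, Fn1, the fibronectin gene, at 23.7 and 37.4 CPM in sham and 47.3 and 58.5 CPM in PSNL, and Vcam1, an adhesion molecule, at 0 and 7.27 CPM in sham and 0 and 8.29 CPM in PSNL. Of 12 interferon and antigen presentation genes 5 were lower, B2m, the light chain of class I molecules, at 103 and 146 CPM in sham and 166 and 158 CPM in PSNL against 564 to 901 CPM, and none was higher.

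**Figure D2:**
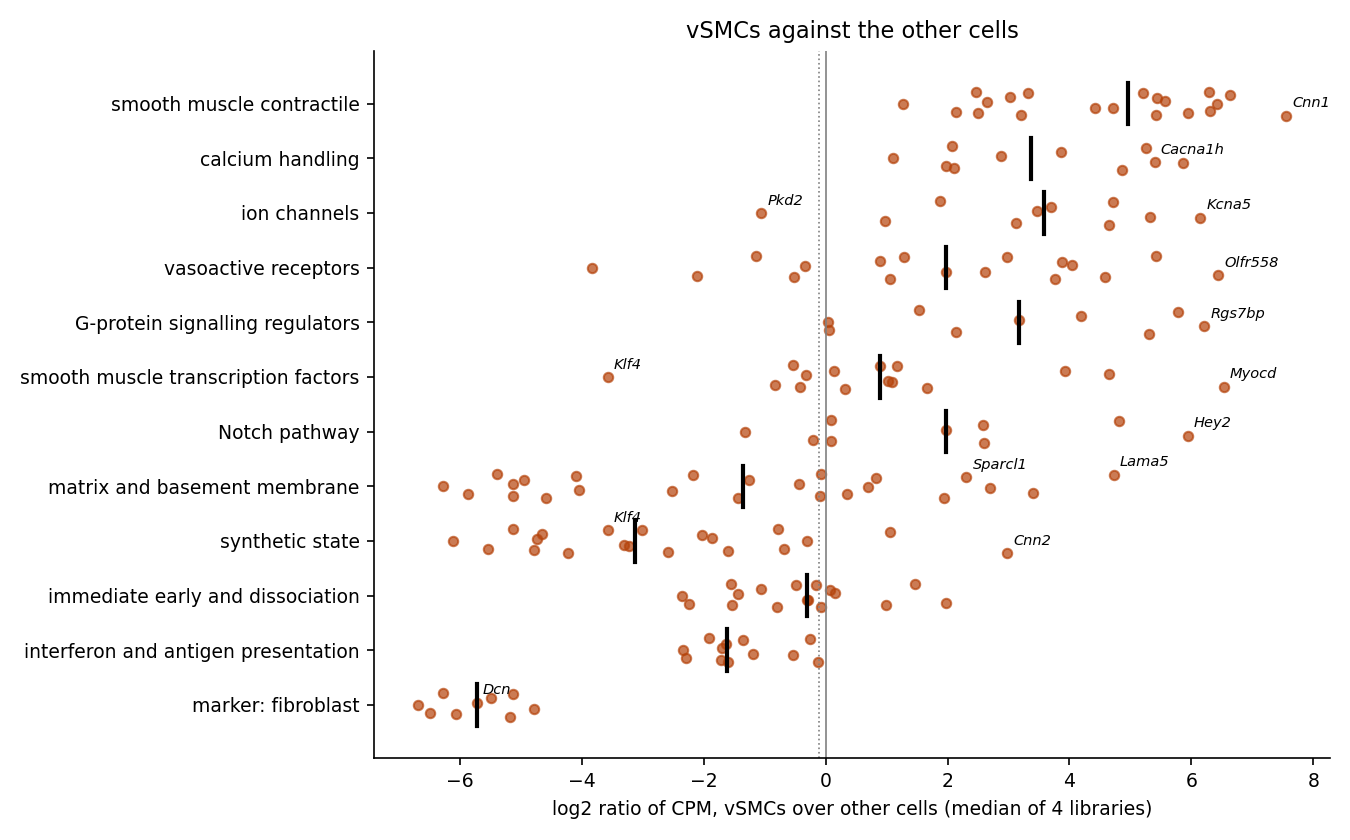
Log2 ratio of CPM in vSMCs over all other cells of the same library, as the median of 4 libraries, for each comparable gene of 12 lists, without the genes of the rule; the bar is the list's median and the dotted line the median of all genes, -0.11. The contractile list has its median at 4.96 and every member above 0, and the synthetic state list has its median at -3.12.

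Against pericytes, gated by the mirrored rule, 191 of 2816 comparable genes (6.78%) were at least 2-fold higher in vSMCs in all 4 libraries and 183 (6.5%) were lower. The sham library of batch 1 had 9 pericyte-gated cells. In every library these cells held much fibroblast RNA, with Dcn at 7955 to 19056 CPM, so genes lower in vSMCs by this measure can be fibroblast genes. Genes that vSMCs share with pericytes can be diluted in this class, which would raise their ratio in vSMCs. The size of that part was not tested. The leader was Sorbs2, an adaptor of actin fibres and Z-discs, at 1313 and 953 CPM in sham and 1336 and 1123 CPM in PSNL in vSMCs and 0 and 47.5 CPM in sham and 57.0 and 76.2 CPM in PSNL in pericytes. Ptp4a3, a phosphatase, stood at 2254 and 1600.5 CPM in sham and 1223 and 1405 CPM in PSNL, against 67.4 to 91.9 CPM, and Sncg, gamma-synuclein, at 1194 and 1285 CPM in sham and 1372 and 1367 CPM in PSNL, against 0 to 128 CPM. The 25 leaders included 7 members of the contractile list, Tpm2, Tagln, Acta2, Ppp1r12b, Flna, Lmod1 and Myl6. In pericyte-gated cells Acta2 still stood at 1230.2 to 2303 CPM. Ppp1r12b, the regulatory subunit of myosin phosphatase, stood at 475 and 409 CPM in sham and 368 and 473 CPM in PSNL, against 23.7 to 52.3 CPM. Mustn1, a small nuclear protein of muscle and bone, and Crip1, a LIM protein, stood at 2884 to 3947 CPM and 11355 to 18304 CPM in vSMCs, against 249.9 to 575 CPM and 1707 to 3039 CPM.

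Single vSMCs differed in how much of a few genes they held. With each cell thinned to 1000 UMIs, the Fano factor (variance over mean, 1 for counting noise alone) had a median of 1.10 over 1266 genes in the 3 libraries with at least 100 vSMCs. The 10 highest were Dcn (33.3), Malat1 (23.4), Mgp (9.64), Mt1 (7.04), Fos (5.82), Gsn (5.75), Cebpd (5.62), Acta2 (5.54), Rgs5 (5.52) and Fabp4 (5.38). They fall into different kinds. Malat1 is a nuclear long noncoding RNA, Mgp inhibits calcification, Mt1 binds metal ions, Fos and Cebpd are rapidly induced transcription factors, and Fabp4 carries fatty acids. For Acta2 the 10th percentile, median and 90th percentile of its share of a cell's UMIs were 0.524%, 1.53% and 3.04% in the sham library of batch 1 and 0.370%, 1.13% and 2.18% in the PSNL library of batch 2. Rgs5 and Fabp4 were instead found in some vSMCs and not in others, with at least 1 UMI in 38.5% and 48.6% of vSMCs in sham and 36.6% and 60.2% in PSNL for Rgs5, and in 23.1% and 46.5% in sham and 34.1% and 52.0% in PSNL for Fabp4. In fibroblasts these shares were at most 0.847% and 1.59%. After thinning they were 26.9% to 43.3% for Rgs5 and 15.4% to 35.1% for Fabp4, with the PSNL library of batch 2 highest for Rgs5 and the sham library of batch 2 highest for Fabp4. Cells of a library are not replicates and these values carry no test.

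Dcn, the proteoglycan decorin and a defining gene of fibroblasts (ENSMUSG00000019929.16, chr10:97479609-97518143, plus strand of GRCm38), was concentrated in a few vSMCs. Of 1348 Dcn UMIs in all vSMCs, 1056 (78.3%) lay in 12 cells in which Dcn made up at least 1% of UMIs, a limit chosen after the values were seen. These were 1 and 6 cells in sham and 1 and 4 cells in PSNL. In the sham library of batch 1, 148 of 156 Dcn UMIs came from 1 cell. No Dcn UMI was found in 22 and 187 vSMCs of sham and in 259 and 460 of PSNL. A set of 13 vSMCs, 4 of them among the 12, had under 0.2% of UMIs from Acta2 and Tagln. Barcodes of 10 to 100 UMIs, taken as free RNA, held 4519 and 15161 CPM of Dcn in sham and 6447 and 7799 CPM in PSNL. Without the 12 cells, 8 of the 10 most variable genes stayed among the first 10, Dcn could not be ranked, and Gsn, an actin-severing protein, went from rank 6 to rank 25.

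**Figure D3:**
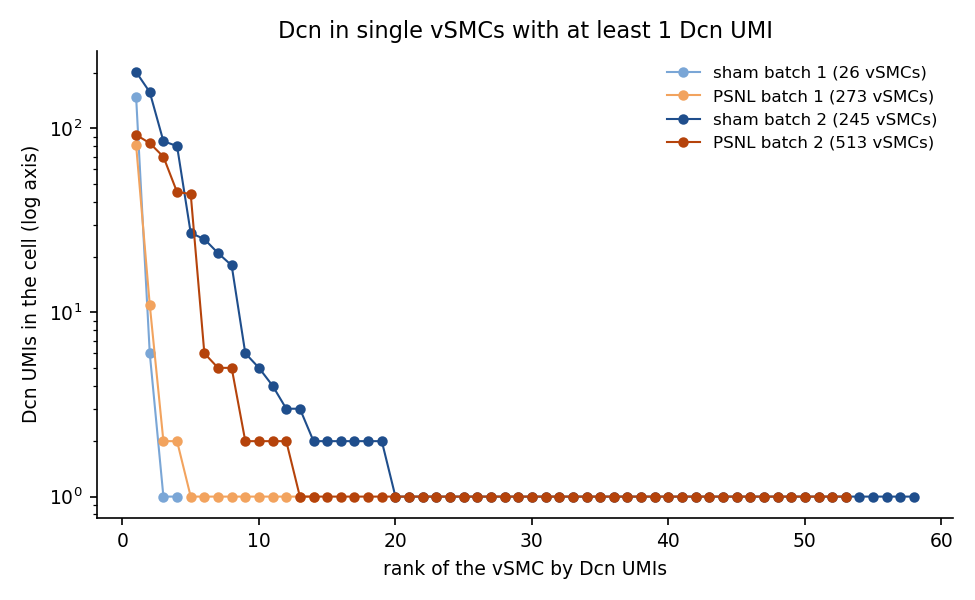
Dcn UMIs (log axis) in each vSMC with at least 1 Dcn UMI, ranked within its library; colour gives surgery and batch, and the legend gives the number of vSMCs. The first cell of the sham library of batch 1 holds 148 of that library's 156 Dcn UMIs, and most of the vSMCs with Dcn in the batch 2 libraries hold few.

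vSMCs made up a larger share of the sorted cells after PSNL than after sham surgery in both batches. vSMCs were 26 of 544 cells (4.78%, exact 95% binomial interval 3.15% to 6.92%) and 245 of 3394 (7.22%, 6.37% to 8.14%) in sham, and 273 of 2327 (11.7%, 10.5% to 13.1%) and 513 of 3777 (13.6%, 12.5% to 14.7%) in PSNL. The intervals cover counting error only. Both PSNL libraries lay above both sham libraries, with means of 12.7% ± 1.31 and 6.00% ± 1.72 (SD, n = 2 each), a difference of 6.66 percentage points, and within-batch differences of 6.95 and 6.36 points. A two-sided exact permutation test of 2 against 2 libraries gave p = 0.333, the smallest this test can give with so few libraries, so it cannot reach 0.05 whatever the difference. Leaving out the sham library of batch 1 gave a difference of 5.44 points. The make-up of the other cells differed too, and fibroblasts were 368 of 544 and 945 of 3394 cells in sham and 882 of 2327 and 952 of 3777 in PSNL. A share depends on these numbers, and their part in the result was not tested.

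Within vSMCs plus pericyte-gated cells the picture was less even. Over the libraries the pericyte-gated cells held 14988 to 31969 CPM of fibroblast markers and 2138 to 3829 CPM of pericyte markers. They were thus not a class of pericytes alone. vSMCs made up 74.3% (56.7% to 87.5%) and 56.5% (51.6% to 61.2%) of vSMCs plus pericyte-gated cells in sham, and 76.0% (71.3% to 80.4%) and 78.3% (75.0% to 81.4%) in PSNL. The difference of means was 11.8 points, with 1.76 points in batch 1 and 21.9 points in batch 2, and the exact permutation test again gave its smallest p, 0.333. The difference was 2.90 points without the sham library of batch 2 and 20.7 points without that of batch 1. With a stricter pericyte gate, which also asked for 2 UMIs of Rgs5, Notch3, Cspg4, Ndufa4l2 and Cox4i2 together and was set after the data were seen, the difference was 3.45 points (p = 0.667, exact permutation test) and turned to -1.88 points in batch 1.

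**Figure D4:**
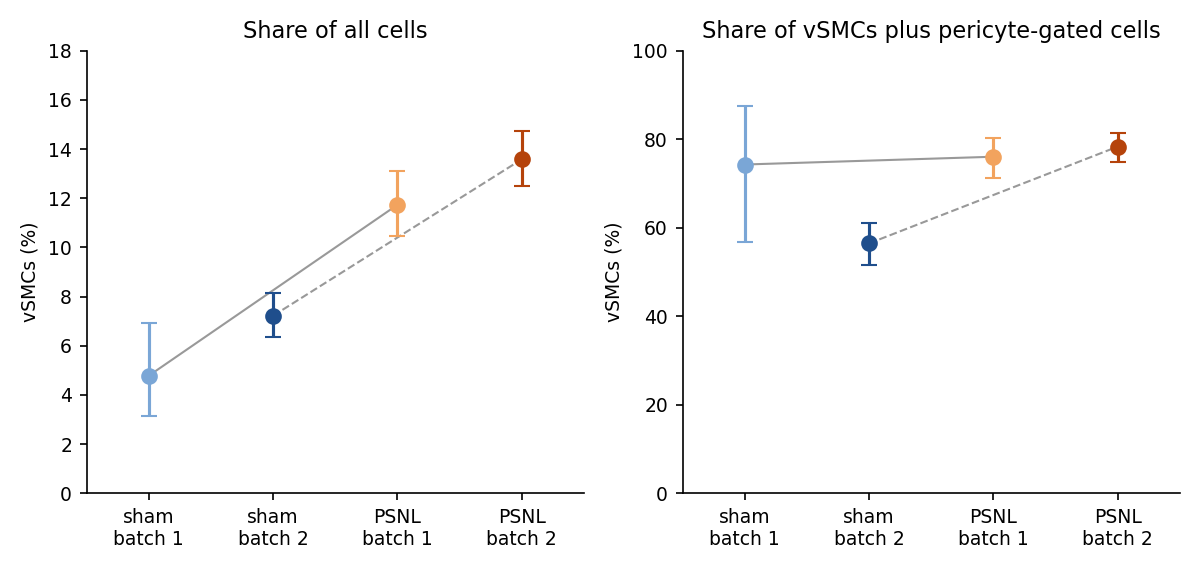
vSMCs as a percentage of all cells (left) and of vSMCs plus pericyte-gated cells (right) in each month 2 library; bars are exact 95% binomial intervals and lines join the libraries of a batch, solid for batch 1 and dashed for batch 2. On the left both PSNL libraries, at 11.7% and 13.6%, lie above both sham libraries; on the right the sham library of batch 2 is alone at 56.5%.

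Whether gene expression of vSMCs differed between PSNL and sham was tested on the sums per library with edgeR's quasi-likelihood test and Benjamini-Hochberg adjustment. No gene passed an adjusted p of 0.05 (0 of 7996 genes, 0%), and 104 genes (1.3%) had an unadjusted p under 0.05, 46 higher and 58 lower in PSNL. DESeq2 called 1 gene, and edgeR with the batch as a block called 1, in each case Dcn. Without the sham library of batch 1, edgeR called 3 genes, Car3, Ccl11 and Cxcl10, all lower in PSNL. In that last fit the sham group was 1 library, assumed to vary as the PSNL pair does. Its 78 Car3 UMIs lay in 3 vSMCs, and 64 of its 73 Cxcl10 UMIs in 1 vSMC. A p above the threshold does not show equal levels. Acta2 had a log2 fold change of -0.31 ± 0.39 (SE) and an adjusted p of 1.00, and Myocd had 0.17 ± 0.35. Genes of the rule are left out of the lists here too, since their level in vSMCs is bound to the selection. Across the contractile list none of 20 members was called, 6 estimates were above 0 and 14 below, and the median was -0.32, where that of all genes tested was 0.026. The lowest was Tpm2 at -0.56 ± 0.40 and the highest Tpm1, another tropomyosin gene, at 0.36 ± 0.39. The list's median was 0.0044 without the sham library of batch 1, which has 26 vSMCs.

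Dcn had the smallest p. It stood at 1234 and 714 CPM in sham and 152 and 184 CPM in PSNL, with both PSNL values below both sham values, and its log2 fold change was -2.54 ± 0.39 (unadjusted p = 3.82e-05, adjusted p = 0.305). The adjusted p was 0.0215 with the batch as a block and 3.67e-05 in DESeq2. Without the 12 Dcn-rich vSMCs the levels were 64.5 and 131 CPM in sham and 35.9 and 62.5 CPM in PSNL, and the log2 fold change was -1.11. These cells were chosen by their Dcn, so a smaller difference without them follows from the choice. With the rule applied to each cell thinned to 1000 UMIs it was 0.20. Dcn is itself 1 of the 9 fibroblast markers. The other 8 summed to 403 and 424 CPM in sham and 292 and 240 CPM in PSNL, and of the 5 of them that were tested 4 had estimates below 0 and 1 above. Apod, an apolipoprotein of fibroblasts, stood at 182 and 176 CPM in sham and 80.3 and 50.7 CPM in PSNL with a log2 fold change of -1.46 ± 0.38. Igfbp6, Efemp1 and Ccl11, also abundant in fibroblasts, had values of -2.21 ± 0.69, -4.65 ± 1.06 and -2.27 ± 0.45. Over the left-out libraries Apod ran from -1.86 to -1.08 and Efemp1, in the 3 fits that gave it a value, from -7.07 to -4.20. The value of -7.07 rests on a PSNL library with 0 Efemp1 UMIs, so it depends on the fit's prior count and is no bound. Without the sham library of batch 2 the value was -1.28 for Ccl11 and 0.091 for Igfbp6. With 10% free RNA subtracted, Dcn, Apod, Igfbp6, Efemp1 and Ccl11 were no longer among the genes with enough counts to be tested, so this setting gives no value for them.

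The other genes among the 10 smallest p were Vtn, which the rule used, Gna14, G0s2, mt-Tq and Ifi27l2a, all with lower estimates in PSNL. None of them was called in this fit, while Vtn, mt-Tq and Ifi27l2a were called without a filter on low counts. Gna14, a G-protein alpha subunit that couples receptors to phospholipase C, stood at 134 and 51.9 CPM in sham and 17.2 and 23.0 CPM in PSNL (log2 fold change -1.94 ± 0.52). G0s2, an inhibitor of the lipase that opens fat stores, stood at 47.5 and 24.9 CPM in sham and 4.30 and 5.99 CPM in PSNL, from 6 and 24 UMIs in sham and 3 and 13 UMIs in PSNL. The mitochondrial transfer RNA gene mt-Tq stood at 641 and 143 CPM in sham and 88.9 and 76.9 CPM in PSNL, highest in the sham library of batch 1, which also had the highest mitochondrial share. These estimates moved with the library left out. Gna14 ran from -2.70 to -1.31, the smallest change without the sham library of batch 1. G0s2 ran from -3.13 to -2.18 and mt-Tq from -2.95 to -0.77, both again smallest without that library. Ifi27l2a, an interferon-induced gene, ran from -3.96 without the PSNL library of batch 2 to -0.63 without the sham library of batch 2. Without the PSNL library of batch 1, 20 of 9365 genes were called, 8 higher and 12 lower in PSNL. The PSNL group is then 1 library, assumed to vary as the sham pair does.

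Immediate early genes, which are induced within minutes by stimulation and by tissue dissociation, had estimates above 0 in 16 of 17 members, with a median log2 fold change of 0.52, and none was called. The list summed to 5687 and 9187 CPM in sham and 5288 and 18070.2 CPM in PSNL in vSMCs and to 7990.4 and 14629 CPM in sham and 10315 and 12313 CPM in PSNL in the other cells. The PSNL library of batch 2 was highest and that of batch 1 lowest, so the groups overlapped. Junb stood at 664 and 817 CPM in sham and 879 and 2059.6 CPM in PSNL (0.95 ± 0.40) and Zfp36, which destabilises inflammatory messenger RNA, at 372 and 324 CPM in sham and 359.9 and 1191 CPM in PSNL (1.12 ± 0.47), and these were the 2 members with an unadjusted p under 0.05. Without the PSNL library of batch 2 the value fell to 0.31 for Junb and 0.13 for Zfp36. The list's median turned to -0.57 without that library, and was 0.21 without the sham library of batch 1 and 1.04 without that of batch 2. Without the PSNL library of batch 1 it was 1.09, and Egr1, Zfp36, Btg2 and Hspa1b were among the 20 genes called, with the PSNL library that had the highest sum alone in its group.

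Other groups gave no call. Of 13 calcium handling genes tested, 4 estimates were above 0 and 9 below, with a list median from -0.33 to 0.029 over the alternatives. Casq2 had the smallest p of them, at 198 and 133 CPM in sham and 74.6 and 78.8 CPM in PSNL and -1.05 ± 0.36 (unadjusted p = 0.0135, adjusted p = 1.00), with both PSNL values below both sham values. Of 10 ion channels 5 were above 0 and 5 below, with a list median from -0.17 to 0.17 over the alternatives. P2rx1, the ATP-gated channel through which sympathetic nerves contract arteries, stood at 7.91 and 13.5 CPM in sham and 27.2 and 30.9 CPM in PSNL. These came from 1 and 13 UMIs in sham and 19 and 67 UMIs in PSNL. Its log2 fold change was 1.23 ± 0.55 (unadjusted p = 0.0457, adjusted p = 1.00, edgeR). It ran from 1.13 to 1.87 over the left-out libraries. The highest was without the sham library of batch 2, which leaves a sham level from 1 UMI. Medians of the remaining lists lay between -0.05 and 0.21: 8 of 15 vasoactive receptors, 5 of 10 G-protein regulators, 9 of 14 transcription factors, 6 of 8 Notch pathway members, 10 of 20 matrix genes, 8 of 12 synthetic state genes and 5 of 9 interferon genes had estimates above 0. Over the alternatives these medians moved on both sides of 0 for all of these lists but the transcription factors, from -0.25 to 0.66 for interferon genes, -0.14 to 0.56 for the synthetic state, -0.17 to 0.41 for the Notch pathway and -0.30 to 0.11 for matrix genes. In the synthetic state list Lgals3, the galectin-3 gene, stood at 23.7 and 48.8 CPM in sham and 91.8 and 70.5 CPM in PSNL, from 3 and 47 UMIs in sham and 64 and 153 UMIs in PSNL (0.94 ± 0.42, unadjusted p = 0.0458, adjusted p = 1.00), with both PSNL values above both sham values. Its value ran from 0.74 to 1.76 over the left-out libraries, the highest without the sham library of batch 2, which leaves a sham level from 3 UMIs. Outside the lists above, 5 sex-linked genes were tested, with 2 estimates above 0 and 3 below. Xist stood at 94.9 and 24.9 CPM in sham and 51.6 and 90.3 CPM in PSNL. Whether males and females gave equal parts of the vSMCs was not tested. Secreted mediators that the study followed were too sparse to pass the filter on low counts. Without that filter 5 of them were fitted, with 3 estimates above 0 and 2 below. Il6, an inflammatory cytokine, had 0 and 8 UMIs in sham and 0 and 79 UMIs in PSNL, from 13 cells in the PSNL library of batch 2, 1 of which held 34.

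**Figure D5:**
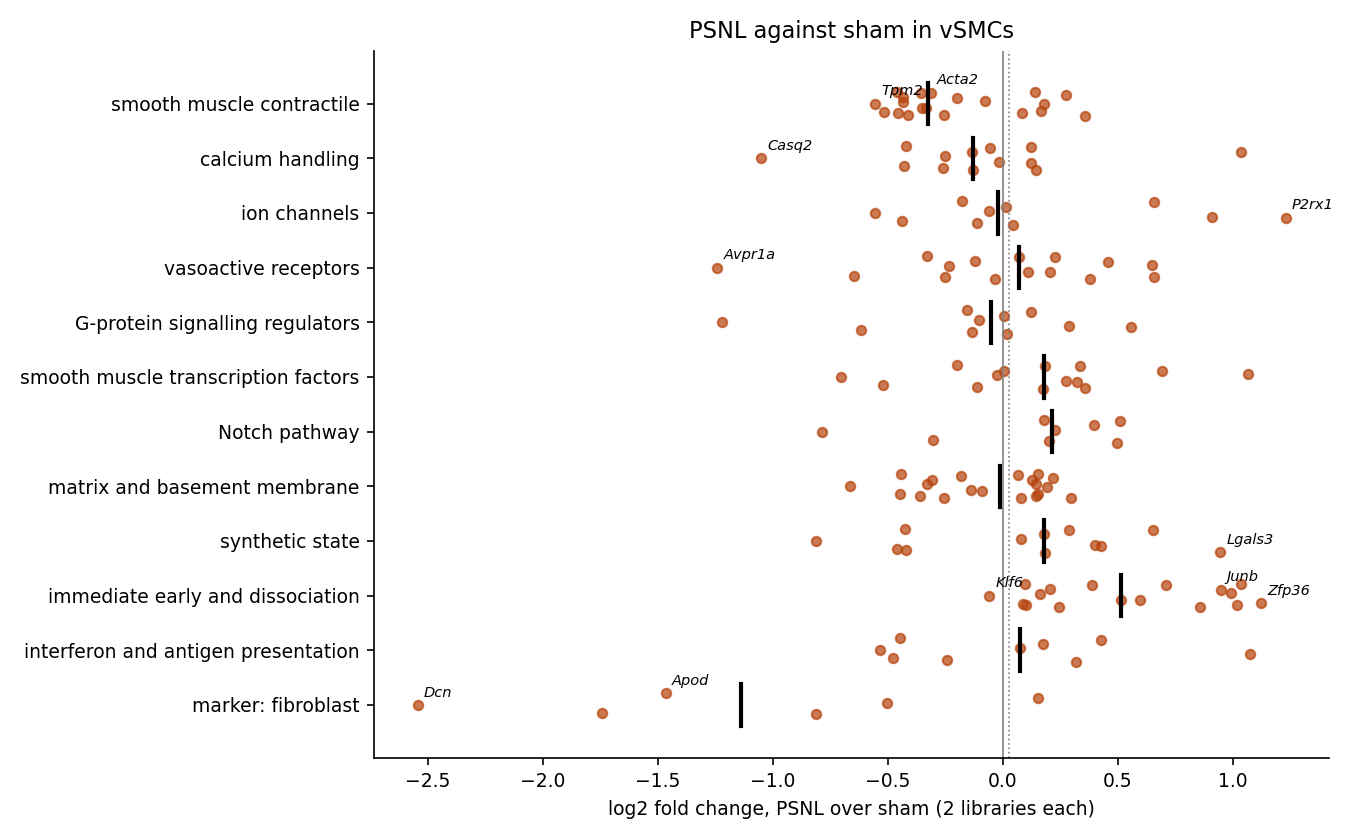
Log2 fold change of PSNL over sham in vSMCs for each tested gene of 12 lists, without the genes of the rule (2 libraries a group); the bar is the list's median and the dotted line the median of all 7996 genes, 0.026. No point passed the adjusted threshold; immediate early genes lie mostly above 0 and fibroblast markers mostly below.

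Whether the PSNL effect in vSMCs differed from that in neighbouring cells was tested as an interaction with the library as a block. In this fit the p-values were those of a normal distribution at the ratio of estimate to SE. The spread was thus shared among genes, and a gene's own spread between pools was not weighed. The pericyte-gated cells of this test held much fibroblast RNA, with fibroblast markers at 14988 to 31969 CPM. Against them 7 of 8644 genes were called (0.081%), all with a lower effect in vSMCs. They were Dcn, Cxcl10, Apod, Efemp1, Igfbp6, Gpc3 and Vtn. Both gates used Vtn, so its level in each class is bound to the selection. Dcn, Apod, Efemp1 and Igfbp6 are abundant in fibroblasts. Among vSMCs, 12 cells held 1056 of 1348 Dcn UMIs, and 1 cell held 51 of the 56 Apod UMIs of the PSNL library of batch 1. For these genes a different PSNL effect and a different number of fibroblast-like barcodes in each gate cannot be told apart. Against fibroblasts 10 of 12883 genes were called (0.0776%), 3 with a higher effect in vSMCs (0.0233%), Sox6os, Entpd1 and Fabp4, and 7 with a lower one (0.0543%), Car3, Cxcl10, Efemp1, Lbp, Dcn, Ifi27l2a and Igfbp6. These counts rested on single libraries: they were 18 and 22 without the sham library of batch 1, and 0 and 3 without the PSNL library of batch 2. Against pericytes 3 genes were called without the PSNL library of batch 1 and 13 without the sham library of batch 2. Several of the genes rested on few cells. Car3, a carbonic anhydrase, had 0 and 78 UMIs in sham and 0 and 1 UMIs in PSNL, and the 78 UMIs came from 3 cells. Cxcl10, an interferon-induced chemokine, had 0 and 73 UMIs in sham and 0 and 20 UMIs in PSNL, and 64 of the 73 came from 1 cell.

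The genes with a higher effect in vSMCs were spread over more vSMCs, while the spread of their UMIs over fibroblasts was not examined. The fibroblasts held 28 and 71 Entpd1 UMIs in sham and 28 and 29 in PSNL. They held 1 and 72 Fabp4 UMIs in sham and 12 and 6 in PSNL. Of Sox6os they held 6 and 6 UMIs in sham. Entpd1, the ectonucleotidase CD39 that removes extracellular ATP and ADP, stood at 158 and 135 CPM in sham and 234 and 202 CPM in PSNL in vSMCs and at 13.6 and 16.7 CPM in sham and 8.98 and 5.32 CPM in PSNL in fibroblasts, and the log2 difference between the effects was 1.87 ± 0.44 (adjusted p = 0.0291, edgeR). In each batch it was higher after PSNL in vSMCs and lower in fibroblasts, while its own fold change in vSMCs was not called. Fabp4 stood at 625 and 905 CPM in sham and 961 and 880.3 CPM in PSNL in vSMCs, and at 0.484 and 16.9 CPM in sham and 3.85 and 1.10 CPM in PSNL in fibroblasts, where the PSNL library was higher in batch 1 and lower in batch 2. Its difference of 2.27 ± 0.53 (adjusted p = 0.0291) turned to -1.19 without the sham library of batch 2. Sox6os, an antisense RNA of Sox6, had 1 and 23 UMIs in sham and 48 and 76 UMIs in PSNL in vSMCs, from 34 and 55 cells in PSNL, and was at 0 in the fibroblasts of both PSNL libraries, so its fitted difference of 6.42 ± 1.46 depends on the fit's prior count and is no bound. Reads of Sox6os and Sox6 cannot be told apart without the counting strand.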

How the data were processed

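Cells of 4 month 2 libraries were analysed. The authors deposited raw UMI counts for all barcodes, made with kb-bustools on GRCm38 (kallisto 0.46.2 and bustools 0.40.0, with Seurat 4.3 also in the submitters' processing notes); annotation release and counting strand are not given in the sources used here. The files hold 55421 gene identifiers, 55154 with a symbol; positions came from GENCODE's GRCm38 annotation and promoters from RefSeq. The members, gene lists and tests were chosen with earlier results of these data known. Fibroblasts had at least 1 Pdgfra UMI and no Sox10 or Cdh5 UMI, Schwann and endothelial cells likewise by Sox10 and Cdh5, with both mural sums under 3. UMIs were summed per library and class and fitted with edgeR 4.0.16 (R 4.3.3; TMM, filterByExpr, quasi-likelihood, threshold 0.05). Batches shared sorting, preparation and sequencing, so batch numbers pair libraries; deviations from the group means correlated at 0.194 within a batch. Named genes were list members, the 25 leaders against each reference, called genes or otherwise the 10 smallest p, and the 10 highest Fano factors. Alternatives used DESeq2 1.42.0, other cell filters, free RNA subtraction and left-out libraries. Doublets were scored with Scrublet in scanpy 1.11.5 and kept, and exact tests and intervals came from scipy 1.17.1 under Python 3.11.15. Fits were tested on simulated sums with the same dispersion for every gene. That setting does not cover genes whose UMIs lie mostly in single cells. Day 5 samples entered no test.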

Additional observations from a re-analysis of the deposited data

Results flagged for a closer look

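A total of 16 interaction results were picked out because the PSNL effect in vSMCs differed from that in another class of the same libraries by a test of the difference itself (edgeR, adjusted p under 0.05). That test used a spread shared among genes, so a gene's own spread between pools was not weighed. Against pericyte-gated cells, the log2 difference between the effects was -2.22 ± 0.26 for Dcn, -4.03 ± 0.70 for Cxcl10, -1.95 ± 0.36 for Apod, -4.60 ± 0.89 for Efemp1, -1.68 ± 0.36 for Igfbp6 and -1.97 ± 0.44 for Gpc3. In vSMCs, Efemp1, an extracellular matrix glycoprotein, had 6 and 19 UMIs in sham and 0 and 3 UMIs in PSNL, and Gpc3, a cell-surface proteoglycan, had 32 and 55 UMIs in sham and 30 and 65 UMIs in PSNL, with 28 of the 32 in the sham library of batch 1 from 1 cell. Against fibroblasts the difference was -8.68 ± 1.13 for Car3, -4.14 ± 0.71 for Cxcl10, -4.54 ± 0.80 for Efemp1, -4.30 ± 0.82 for Lbp, -2.03 ± 0.40 for Dcn, -2.11 ± 0.50 for Ifi27l2a, -1.90 ± 0.46 for Igfbp6, 6.42 ± 1.46 for Sox6os, 1.87 ± 0.44 for Entpd1 and 2.27 ± 0.53 for Fabp4. Lbp, a binding protein for bacterial lipopolysaccharide, had 1 and 20 UMIs in sham and 0 and 3 UMIs in PSNL in vSMCs, from 5 cells in the sham library of batch 2. Car3, Efemp1 and Lbp had no more than 3 UMIs in the vSMCs of either PSNL library. Their fitted differences thus depend on the fit's prior count and are no bounds. Over the alternatives, calls were lost for each of these genes. Against pericytes, the call held in 12 of 14 for Dcn, 11 of 14 for Cxcl10, 13 of 14 for Apod, 9 of 14 for Efemp1, 9 of 14 for Igfbp6 and 7 of 14 for Gpc3, and the direction in all 14 except for Igfbp6, with 13. Igfbp6 was at -0.47 (adjusted p = 0.966, edgeR) without the sham library of batch 2, within a range of adjusted p over its alternatives from 2.60e-10 to 1.00. Against fibroblasts, the call held in 9 of 11 for Car3, 11 of 13 for Cxcl10 and for Dcn, 10 of 13 for Efemp1 and for Lbp, 9 of 13 for Ifi27l2a, Sox6os, Entpd1 and Fabp4, and 8 of 13 for Igfbp6. The direction changed in 2 of 13 for Fabp4 and for Igfbp6 and in 1 for each of Car3, Cxcl10 and Ifi27l2a.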

How the results depend on the processing

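The limits are the 2 libraries a group and the 26 vSMCs of the sham library of batch 1. The share of all cells kept its direction in every alternative run, between 5.44 and 7.88 points over the left-out libraries. The difference in the share of vSMCs plus pericyte-gated cells ran from 2.90 to 20.7 points over them. The batch block leaves both differences of shares as they are. Counts of called genes moved. For PSNL against sham, 12 genes were called without a filter on low counts, 1 with DESeq2, 1 with the replicate block, and 0 to 20 over the left-out libraries (3 without the sham library of batch 1). For the effect against pericytes 11 were called with at least 6 marker UMIs, 12 after subtracting 10% free RNA, 4 without the Dcn-rich vSMCs, and 0 to 18 over the left-out libraries, with 0 without the PSNL library of batch 2. For the effect against fibroblasts 40 were called after subtracting free RNA, 17 without vSMCs low in Acta2 and Tagln, and 3 to 22 over the left-out libraries, with 3 without the PSNL library of batch 2. The settings on low Acta2 and Tagln, Dcn-rich cells and the stricter pericyte gate were chosen after seeing the data. Log2 values that changed direction were 0.20 for Dcn in vSMCs with the rule applied at 1000 UMIs per cell, 0.091 for Igfbp6 in vSMCs without the sham library of batch 2, and, against other classes, 0.79 (pericytes) and 0.043 (fibroblasts) for Igfbp6 with free RNA subtracted, -0.62 for Fabp4 with cells of at least 2000 UMIs, and, without the sham library of batch 2, 1.18 for Car3, 6.60 for Cxcl10, -1.19 for Fabp4, 0.037 for Ifi27l2a and 0.82 for Igfbp6, all against fibroblasts; the cause was not tested. Over the left-out libraries these ran from -3.92 to 0.091 for Igfbp6 in vSMCs and, against fibroblasts, from -13.2 to 1.18 for Car3, -12.3 to 6.60 for Cxcl10, -1.19 to 3.12 for Fabp4, -4.41 to 0.037 for Ifi27l2a and -3.16 to 0.82 for Igfbp6. Of the other values of single genes 375 kept direction and side of the threshold, 13 passed it newly and 52 no longer did. Without the sham library of batch 2 the sham vSMCs held 0 UMIs of Car3 and of Cxcl10. Their values in that fit depend on its prior count and are no bounds. The counts of genes higher or lower in vSMCs than in the other cells stayed within 1.5 times with at least 2000 UMIs per cell (583 and 619) and with free RNA subtracted (597 and 640).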

Other observations

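The PSNL library taken at day 5, which has no control in what was analysed here, held 78 cells of the same rule among 1482 cells. It entered no comparison.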
